A study of Mus musculus with 4 samples.

Results

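The 2 arrays whose titles carry the later of 2 dates, called date 2 here, were compared with the 2 arrays of the earlier date, called date 1, with the treatment of the cells as a block. The series holds 4 mouse 430A arrays, and all 4 enter this comparison. At each date, 1 array held total RNA of untreated YAMC cells and 1 held total RNA of YAMC cells kept for 16 h in the conditioned medium of Lactobacillus GG (LGG), a probiotic bacterium. Only probe sets with a value on all 4 arrays were used, with the control probe sets left out, which kept 16319 of the 22690 probe sets in the table. Of these, 10333 were bright enough to test, and they stood for 6952 genes, each represented by its brightest probe set. The dates come from the array titles, and what they mark (culture, hybridisation or scan) is not stated. Separate cultures are not named in the labels, which means that the p-values measure only the spread between these arrays and that this spread may be technical. With 1 array of each date and treatment, the spread of a gene is the disagreement between its untreated and LGG date differences, moderated across genes. A date difference that depends on the treatment thus enters as error, and no replicate spread is measured. Whatever differed between the dates cannot be told apart from the date.

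The YAMC line was made from the colon epithelium of young adult mice. The mice carried a heat-sensitive SV40 large T antigen under an interferon-gamma-inducible MHC class I promoter, so these cells are commonly grown with interferon-gamma at a low temperature and shifted to a higher one without it. The labels give neither the culture temperature nor whether interferon-gamma was present at either date. Of 18 epithelial markers with values, 13 were below the intensity filter. Among these were the intestinal genes Vil1, Cdx1 and Cdx2 and the epithelial adhesion molecule Epcam, which read 6 to 9. The 5 tested markers included the keratins Krt8 at 431 to 653 and Krt19 at 578 to 1153, and the highest reading of the list was 1967. Of 10 fibroblast markers with values, 4 were below the filter. Their readings ran from 37.0 to 12488, the highest being those of the mesenchymal filament Vim at 9532 to 12488. In bulk RNA, fewer cells of a type and less RNA per cell cannot be told apart.

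Interferon-gamma binds a receptor on the cell surface and signals through Janus kinases to transcription factors, which switch on a first wave of genes such as the interferon regulatory factor Irf1. That wave includes Ciita, the coactivator that turns on MHC class II genes in cells that do not normally express them. Class II molecules present peptides from the endosomal pathway to CD4 T cells, and class I molecules present peptides cut by the proteasome to CD8 T cells. Interferon-gamma also induces guanylate-binding proteins and immunity-related GTPases, which act on intracellular pathogens, the catalytic subunits of the immunoproteasome, and chemokines such as Cxcl10.

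Promoter sequences show which known control letters lie before 4 of the genes that were higher at date 2. The 4 windows below are the 250 bases before the annotated start of H2-Eb1, H2-Aa, Cxcl10 and Gbp2, from RefSeq on assembly GRCm38.p6, written 5′ to 3′ on the strand of the gene. They lie at chr17:34305617-34305866 on the plus strand for H2-Eb1, chr17:34287824-34288073 on the minus strand for H2-Aa, chr5:92348890-92349139 on the minus strand for Cxcl10 and chr3:142620413-142620662 on the plus strand for Gbp2. Capitals mark, on either strand, the Y box letters CTGATTGG, which carry the CCAAT sequence bound by NF-Y in class II promoters, and the core of the interferon-stimulated response element (ISRE), which is GAAA, any 2 bases and GAAA again, bound by interferon regulatory factors.
H2-Eb1: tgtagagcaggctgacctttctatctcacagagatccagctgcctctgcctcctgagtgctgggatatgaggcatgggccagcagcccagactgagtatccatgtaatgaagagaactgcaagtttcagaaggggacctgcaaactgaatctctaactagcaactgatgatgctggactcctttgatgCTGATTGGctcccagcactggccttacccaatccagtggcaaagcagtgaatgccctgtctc
H2-Aa: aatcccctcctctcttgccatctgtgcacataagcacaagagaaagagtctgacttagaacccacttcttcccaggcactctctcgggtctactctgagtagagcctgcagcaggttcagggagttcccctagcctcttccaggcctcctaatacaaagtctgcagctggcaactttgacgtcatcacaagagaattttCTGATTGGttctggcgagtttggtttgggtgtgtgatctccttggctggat
Cxcl10: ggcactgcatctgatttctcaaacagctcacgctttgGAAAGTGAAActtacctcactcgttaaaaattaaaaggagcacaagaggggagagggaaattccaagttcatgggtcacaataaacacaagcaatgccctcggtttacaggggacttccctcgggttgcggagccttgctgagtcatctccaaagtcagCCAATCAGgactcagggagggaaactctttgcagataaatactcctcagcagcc
Gbp2: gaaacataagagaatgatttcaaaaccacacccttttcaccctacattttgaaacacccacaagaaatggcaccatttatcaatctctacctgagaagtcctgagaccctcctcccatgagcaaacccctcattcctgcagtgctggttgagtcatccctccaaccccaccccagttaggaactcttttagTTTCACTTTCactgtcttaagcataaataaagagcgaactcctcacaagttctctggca
The Y box letters began 62 bases before the start of H2-Eb1, 51 before that of H2-Aa and 54 before that of Cxcl10. The ISRE core letters began 213 bases before the start of Cxcl10 and 59 before that of Gbp2. The interferon-gamma-activated site (GAS) was searched as TTCNNNGAA on both strands. A GAS match and an ISRE match can share the letters GAA, and a promoter with both is counted under both. Over all 27025 genes with a promoter in the table, 8.13% held the GAS letters, 3.46% the ISRE core and 4.43% the Y box. Among the 5689 tested genes with a promoter these shares were 7.12%, 3.46% and 6.59%. A match is a description of the letters and not a shown binding site.

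Few genes passed the test between the dates. In the limma fit over all probe sets, 15 of the 6952 genes (0.216%) were higher at date 2 and 12 (0.173%) were lower, at a Benjamini-Hochberg adjusted p under 0.05, and 346 and 362 had an unadjusted p under that threshold. The genes that were higher were led by MHC class II genes, at 3.94-fold to 9.35-fold. They included interferon-inducible GTPases, an immunoproteasome subunit and the chemokine Cxcl10. None of the genes that were lower is on an interferon or MHC list, but these lists held only 104 of the 6952 genes tested. Differences are on the scale of log2(intensity + 25.2), where 25.2 is the pseudocount, which understates folds at low intensity. Both arrays of date 2 lay above both of date 1 for 13 of the 15 higher genes, against 15.1% of all genes tested, and below both for 12 of the 12 lower genes, against 15.9%. The genes were called on these same values, so the lack of overlap largely follows from the calls and is no separate support. At least 2-fold in the same direction in both treatments were 14 genes upward (0.201%) and 11 downward (0.158%), 12 and 8 of which were among the genes that passed. The others were Ms4a4d and Ptpn18 upward and Fbxo28, Sp7 and Spen downward, at adjusted p values of 0.0525 (Sp7) to 0.137 (Ms4a4d). The SE and p-value of a gene rest on 12.5 prior degrees of freedom shared across genes and 1 residual degree of freedom, and with no treatment block or no intensity filter 0 genes passed (237 and 851 had an unadjusted p under 0.05). An exact permutation test of 2 arrays against 2 that ignores the treatment block cannot give a two-sided p below 0.333. Permuting the dates within each treatment allows fewer arrangements still. The values on all 4 arrays are therefore given for each gene that passed.

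**Figure D1:**
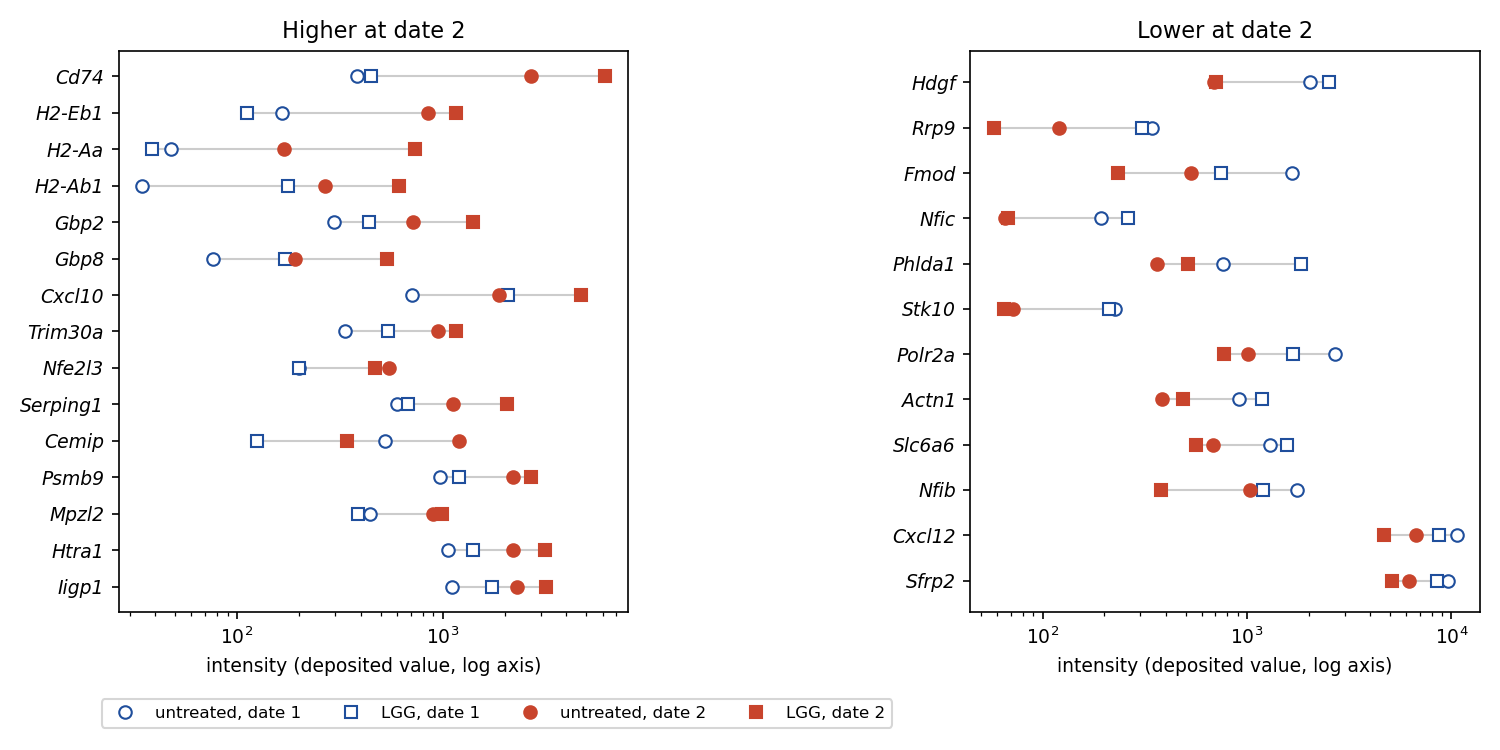
Deposited intensity (log axis) on the 4 arrays of each gene that passed the limma test, for the 15 genes higher and the 12 lower at date 2. Open symbols are date 1, filled symbols date 2, circles untreated and squares LGG arrays; the dates overlap in Cxcl10 and Cemip, and Cd74 runs from 381 to 6148.

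**Figure D2:**
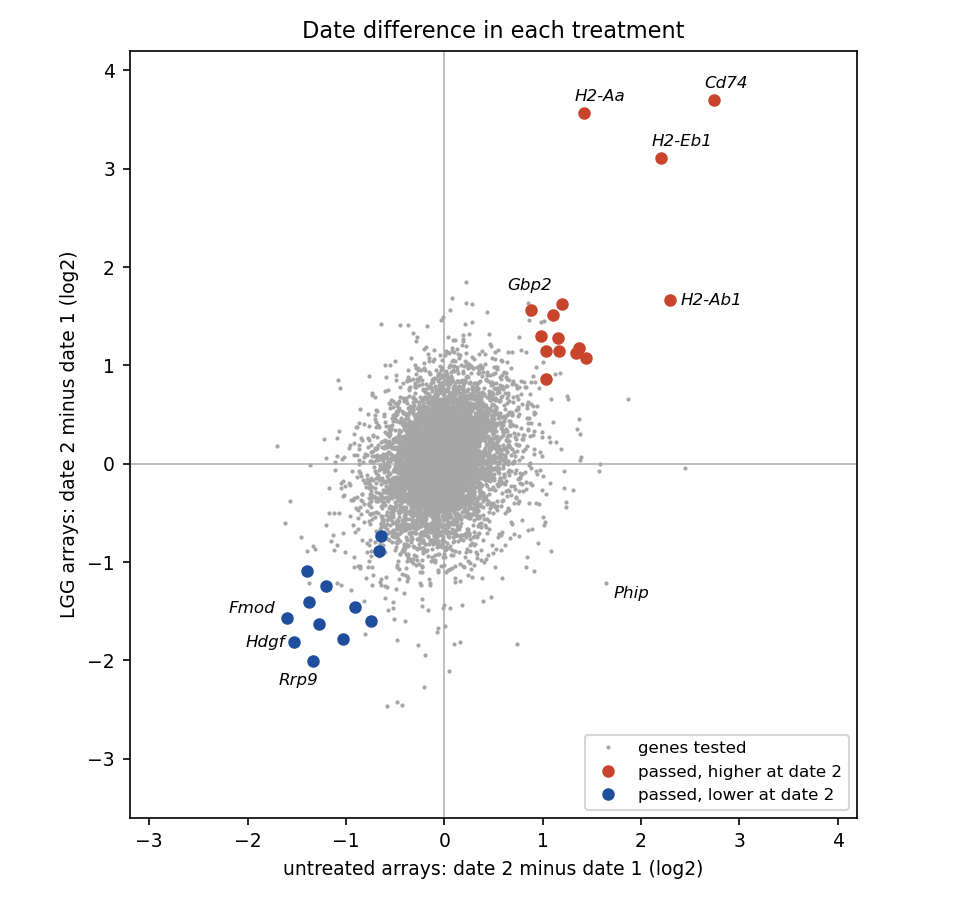
Date difference of the untreated arrays (horizontal) against that in the LGG arrays (vertical), both as date 2 minus date 1 on the log2(intensity + pseudocount) scale, for all 6952 genes. Genes that passed lie in the upper right and lower left, with Cd74 at 2.75 and 3.70, and Phip lies in the lower right at 1.65 and -1.22.

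The 4 largest fitted differences among the genes that passed were those of MHC class II genes. Of 17 class II chains and regulators listed, 10 were tested, 4 were below the intensity filter and 3 had no probe set with 1 symbol. Of those tested, 4 were higher at date 2 and 0 lower (0.216% and 0.173% of all genes tested were). Their median difference was 0.76 on the log2 scale against 0.0070 over all genes tested. H2-Aa and Rfxank entered the test only through date 2, where they were high; without them the median was 0.63, and over all 14 members with values it was 0.42. Cd74, the invariant chain that escorts class II molecules to the endosome, read 381 on the untreated and 449 on the LGG array of date 1, and 2704 and 6148 at date 2. Both values of date 2 thus stood far above both of date 1, and the fitted difference was 3.22 ± 0.23 (SE, log2, limma adjusted p = 2.76e-05), or 9.35-fold. H2-Eb1, the beta chain of the I-E molecule, read 165 and 112 on the untreated and LGG arrays of date 1 and 852 and 1165 at date 2. Its dates did not overlap either, and the difference was 2.66 ± 0.27 (SE, log2, adjusted p = 0.000629). H2-Aa, the alpha chain of I-A, read 47.5 and 38.5 at date 1, both below the intensity filter of 101, with 169.9 and 731 there. The LGG array of date 2 was the highest by far, with a date difference of 3.57 in the LGG arrays against 1.42 in the untreated (log2). The fitted value was 2.50 ± 0.40 (SE, adjusted p = 0.0175), and a difference between the treatments could not be tested with 1 array of each kind. H2-Ab1, the beta chain of I-A, read 34.4 and 176 at date 1 and 268 and 612 at date 2. Its untreated array of date 1 was the lowest of the 4, and the difference was 1.98 ± 0.27 (SE, log2, adjusted p = 0.00701). The probe sets of H2-Aa and H2-Ab1 are of a kind that can bind several transcripts, so part of either signal may be shared with related chains.

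None of the 6 other class II genes tested passed. H2-DMa, which loads peptide onto class II, read 142 and 145 at date 1 and 137 and 444 at date 2, so that only the LGG array of date 2 stood out (log2 difference 0.71, adjusted p = 0.436). Rfxank, a subunit of the RFX complex that binds class II promoters, read 83.6 and 86.6 at date 1 and 139 and 205 at date 2 (log2 difference 0.82, adjusted p = 0.295), while the other subunits Rfx5 and Rfxap differed by -0.051 and -0.0067 in the untreated and 0.25 and 0.26 in the LGG arrays. Ifi30, a thiol reductase of the endosome, read 994 and 1351 at date 1 and 1199 and 2418 at date 2, with overlapping dates and a difference of 0.55 (adjusted p = 0.348). The peptide exchange chain H2-DMb2 differed by 0.17 (log2). Ciita read 68.0 and 45.9 at date 1 and 44.5 and 68.5 at date 2, which is below the filter on every array and shows no order of the dates. The endosomal protease Ctss (11.4 to 33.4), the I-E alpha chain H2-Ea (23.7 to 45.7) and the peptide-loading modulator H2-Oa (19.1 to 61.4) were below the filter on all 4 arrays, and detection calls were not used here. Of the 7 tested class II genes with a promoter in the table, 2 held the Y box letters, H2-Aa and H2-Eb1, 0 the ISRE core and 1 the GAS letters. Among all tested genes with a promoter these shares were 6.59%, 3.46% and 7.12%.

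Macrophages and dendritic cells also express class II genes, so their markers were read on the same arrays. Of 16 markers with values, 11 were below the filter. In both treatments 3 were higher and 6 lower at date 2, against 28.9% and 28.7% of all genes tested. Of the 5 tested markers, 0 passed (0.216% of all genes tested were called higher and 0.173% lower). The summed intensity of the 16 markers was 1354 to 1474 at date 1 and 1155 to 1389 at date 2, and single markers ranged from 4.8 to 289. Ptprc, the pan-leukocyte antigen CD45, read 37.2 and 23.2 at date 1 and 15.4 and 19.5 at date 2. The complement subunits C1qa, C1qb and C1qc of macrophages read between 4.8 and 57.9, and the macrophage marker Adgre1 read 122 and 106 at date 1 and 68.9 and 88.5 at date 2. The 3 markers higher in both treatments were Laptm5 (117, 119, 175 and 156), Aif1 (37.3, 40.7, 49.7 and 50.6) and Itgax (109, 72.8, 109.6 and 119.8), in the order of untreated and LGG at date 1 and then date 2. Of 12 lymphocyte markers, 11 were below the filter, and their sum was 518.6 to 592 at date 1 and 451 to 474 at date 2.

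**Figure D3:**
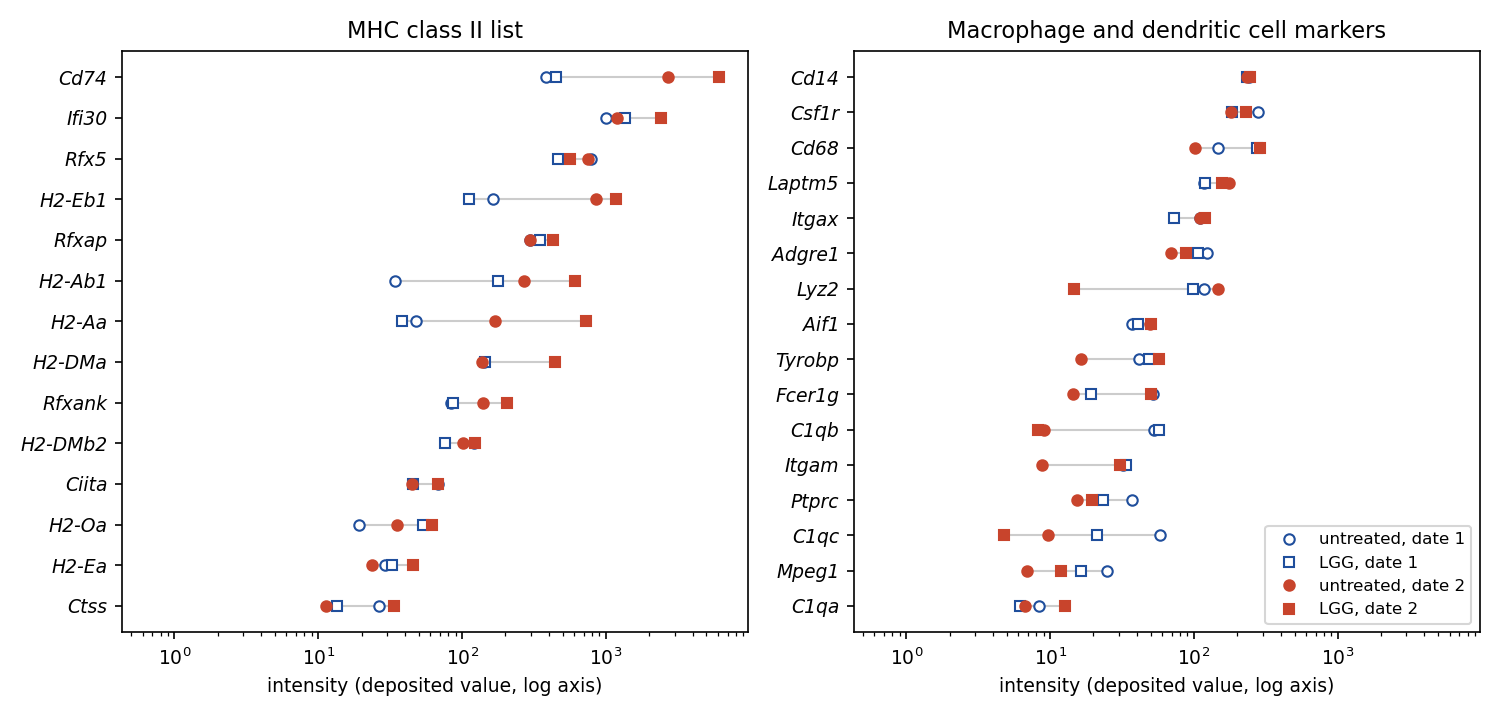
Deposited intensity (log axis, common to both panels) on the 4 arrays of the class II list on the left and of macrophage and dendritic cell markers on the right, with open symbols for date 1 and filled for date 2. Cd74, H2-Eb1, H2-Ab1 and H2-Aa have both date 2 arrays to the right of date 1, while the markers range from 4.8 to 289 with no common order.

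Of the interferon-inducible GTPases, Gbp2, Gbp8 and Iigp1 were higher at date 2, but the calls of Gbp8 and Iigp1 held in few of the alternative settings (2 of 10 and 4 of 11, against 8 of 11 for Gbp2), and median scaling ended both. Of 21 listed, 9 were tested, 3 were below the filter, 8 had no probe set with 1 symbol, and Gbp6 had values at date 2 alone (210 and 367). Of those tested, 3 were higher and 0 lower (0.216% and 0.173% of all genes tested were). A positive difference in both treatments was found for 8 (28.9% of all genes tested), and the median difference was 0.53 on the log2 scale. Gbp2, a guanylate-binding protein, read 298 untreated and 438 after LGG at date 1, and 714 and 1399.7 at date 2. Its dates did not overlap, and the fitted difference was 1.41 ± 0.23 (SE, log2, limma adjusted p = 0.0187). Gbp8, another guanylate-binding protein, read 76.1, 172, 192 and 537 in the same order of arrays, and its LGG array of date 1 lay just under the untreated array of date 2 (log2 difference 1.31 ± 0.26, adjusted p = 0.0479). Iigp1, an immunity-related GTPase, read 1112 and 1736 at date 1 and 2301 and 3179.7 at date 2, without overlap. Its difference was 0.95 ± 0.18 (SE, log2, adjusted p = 0.0371), and a second probe set gave 0.94. Among those that did not pass, Gbp7 read 102, 166, 165 and 281 (log2 difference 0.63) and Igtp 873, 1191, 1126 and 1698 (0.43). Irgm2 and Gbp3 differed mainly in the untreated arrays, by 0.91 and 1.00 against 0.16 and -0.12 in the LGG arrays (log2). Ifi47 and Irgm1 had differences of 0.33 and 0.14, and Gbp2b, Mx1 and Mx2 had means below the filter. Of the 7 tested members with a promoter in the table, 6 held the ISRE core letters (Gbp2, Gbp3, Gbp7, Igtp, Irgm1 and Irgm2) and 3 the GAS letters (Gbp7, Igtp and Irgm2), while 3.46% and 7.12% of the tested genes did. The letters were thus present also in members whose levels were close at both dates, such as Irgm1 at 747 and 624 against 815 and 699.

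Among proteasome genes, 1 of 4 tested inducible members was higher at date 2 and 0 of 5 constitutive counterparts passed. Of all genes tested, 0.216% were higher and 0.173% lower. A further 2 listed inducible members had no probe set with 1 symbol. The immunoproteasome replaces the standard catalytic subunits with inducible ones that favour peptides suited to class I. Psmb9 (also known as LMP2) read 969.8 untreated and 1196 after LGG at date 1, and 2211 and 2688 at date 2. The dates did not overlap, with date differences of 1.17 and 1.15 in the untreated and LGG arrays and a fitted value of 1.16 ± 0.19 (SE, log2, limma adjusted p = 0.0175). Psmb8 (LMP7) read 1061, 1812, 2092 and 3101 in that order and did not pass (0.86 ± 0.18, adjusted p = 0.0586). Psmb10 was 417, 497 and 445 on the first 3 of these arrays and 989 on the LGG array of date 2, and the activator subunit Psme1 read 1519.7, 1696, 2214 and 1942. All 4 tested members had a positive difference in both treatments (28.9% of all genes tested did), with a median of 0.69 (log2). Of the 5 constitutive counterparts, 4 had a negative difference in both treatments (28.7% of all genes tested did) and the median was -0.12. Psmb5, Psmb6 and Psmb7, which the inducible subunits replace, were at -0.19, -0.12 and -0.095 (log2).

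No class I gene passed by its brightest probe set (0.216% of all genes tested were called higher and 0.173% lower). Of 30 class I chains and loading factors listed, 13 were tested, 4 were below the filter, 12 had no probe set with 1 symbol, and H2-T3 had values at date 2 alone (149 and 167). Of those tested, 10 had a positive difference in both treatments (28.9% of all genes tested did) and the median was 0.58 (log2). Tap1 and Tap2, the peptide transporter of the endoplasmic reticulum, read 1029, 1020.5, 1448 and 2182, and 318, 565, 504 and 1064, on the untreated and LGG arrays of date 1 and then of date 2. Their fitted differences were 0.78 and 0.75 (log2, adjusted p = 0.16 and 0.224), and the dates overlapped in Tap2. H2-M3, a nonclassical class I chain, had the largest difference of the list at 0.90 ± 0.22 (SE, log2, adjusted p = 0.114), from 378 and 579 at date 1 to 727 and 1098 at date 2. Tapbp (tapasin), which bridges class I to the transporter, read 1295, 1452, 1962 and 2535 (0.69), the peptide trimming enzyme Erap1 102, 159, 173 and 267 (0.65), and the tapasin-related Tapbpl differed by 0.48. H2-Q5 was 87.6 and 106 on the untreated arrays of dates 1 and 2 and 338 and 726 on the LGG arrays. The brightest probe sets of the classical heavy chains H2-K1 and H2-D1 differed by 0.46 and 0.58 (adjusted p = 0.151 and 0.122), whereas 3 dimmer probe sets of H2-D1, at 0.87 to 1.37, and 1 of H2-K1, at 1.07, passed. The class I heavy chains are near-identical in sequence and most of their probe sets can bind several of them, so their levels are uncertain as to the gene. B2m, the light chain that all class I molecules share, read 7200, 8469.8, 8043 and 8646 (0.094), and the general chaperones of the endoplasmic reticulum Canx, Calr and Pdia3 had differences of -0.041, -0.10 and 0.13 (log2).

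Cxcl10, a chemokine that attracts activated T cells, was high on all arrays and differed with both date and treatment. It read 712 on the untreated and 2074 on the LGG array of date 1, and 1878 and 4712 at date 2. The LGG array of date 1 was above the untreated array of date 2, so the dates overlapped, but within each treatment date 2 was higher, by 1.37 untreated and 1.17 after LGG (log2). The fitted difference was 1.27 ± 0.18 (SE, limma adjusted p = 0.0081). It was 1 of 10 tested chemokines and surface proteins, whose median was 0.22 (log2). The related Cxcl9, below the filter, read 14.8 and 12.8 at date 1 and 33.1 and 61.1 at date 2, and the adhesion molecule Vcam1 read 1329, 1330.4, 1870.5 and 1683 (0.41, adjusted p = 0.441). Serping1, the inhibitor of complement C1, read 599 and 682 at date 1 and 1122 and 2061 at date 2, with no overlap and the highest value on the LGG array of date 2 (1.22 ± 0.23, adjusted p = 0.0308). It was the only 1 of 6 tested complement and secreted proteins to pass (0.216% of all genes tested were higher). The complement protease C2 read 154, 195, 265 and 369 without passing (0.77, adjusted p = 0.266).

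Among genes known as type I interferon-stimulated, 1 passed. Of 33 tested out of 52 listed, 1 was higher and 0 lower (0.216% and 0.173% of all genes tested were). In both treatments 15 had a positive and 8 a negative difference (28.9% and 28.7% of all genes tested did), and the median was 0.17 (log2). Trim30a, a tripartite motif protein, was the member that passed, with 333 and 540.3 at date 1 and 948 and 1167 at date 2, which did not overlap (1.26 ± 0.22, SE, limma adjusted p = 0.0244). Members that did not pass included Oasl2 at 0.60 (0.86 untreated and 0.35 after LGG), Ifi27l2a at 0.60, Uba7, which activates the ubiquitin-like modifier ISG15, at 0.59, and Ifit1 at -0.69 (log2). Ifit1, whose protein binds viral RNA, read 426 and 418 at date 1 and 382 and 163 at date 2, with the LGG array of date 2 the lowest (adjusted p = 0.38). Of the 25 tested members with a promoter in the table, 8 held the ISRE core letters, Trim30a among them (3.46% of all tested genes with a promoter did).

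The receptor, kinases and transcription factors of the interferon-gamma pathway did not pass. Of 17 tested out of 23 listed, 0 were called in either direction (0.216% of all genes tested were called higher and 0.173% lower). In both treatments 7 had a positive and 4 a negative difference (28.9% and 28.7% of all genes tested did). The median was 0.015 (log2), or 0.13 over all 19 members with values. The receptor chain Ifngr2 read 976 and 733 at date 1 and 989.5 and 723 at date 2, nearly alike, and the other chain Ifngr1 and the kinase Jak2 had differences of -0.071 and 0.13 (log2). Irf1, itself an early target of the pathway, read 1054 and 860 at date 1 and 1076 and 1256 at date 2, with values that were close in the untreated arrays and further apart in the LGG arrays (0.28, limma adjusted p = 0.684). Stat2 read 282, 320.5, 311 and 660.5, so that the LGG array of date 2 stood alone (0.56, adjusted p = 0.451). Irf8 read 54.6, 129, 96.0 and 192 (0.55), and Nmi 298, 377, 505 and 459 (0.49). Irf2, which can repress interferon-responsive genes, read 152 and 142 at date 1 and 72.6 and 97.5 at date 2, below the filter there (-0.65, adjusted p = 0.4), and Irf5, Irf7 and Irf9 had differences of 0.43, -0.10 and 0.015. The feedback inhibitor Socs1, below the filter, read 26.2 and 28.3 at date 1 and 60.2 and 88.6 at date 2, while Socs3 differed by -0.14 in the untreated and -0.78 in the LGG arrays (log2). Ifng itself read 25.8, 27.5, 10.9 and 35.1, below the filter on all arrays. The arrays measure RNA and not interferon-gamma protein in the medium.

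Over the 9 lists on interferon and MHC genes together, 104 genes were tested, of which 11 were higher and 0 lower at date 2 (0.216% and 0.173% of all genes tested were), with a median of 0.26 (log2) against 0.0070 over all genes. The lists were chosen with earlier results of these data known, so the 11 set against these shares is a description and no independent support. H2-Aa, 1 of the 11, entered the test only through date 2. These 11 made up most of the 15 genes that were higher. The remaining 4 belong to none of the lists. Nfe2l3, a transcription factor of the cap'n'collar family, read 201 and 201 at date 1 and 546 and 467 at date 2, nearly alike within a date (1.23 ± 0.24, SE, log2, adjusted p = 0.0445). Mpzl2, a cell adhesion protein, read 442, 389.6, 896 and 995 (1.14 ± 0.23, adjusted p = 0.0459). Htra1, a secreted serine protease, read 1060.1, 1406, 2192 and 3152, with both values of date 2 above both of date 1 (1.09 ± 0.18, adjusted p = 0.0187). Cemip, a protein of hyaluronan turnover, read 527 untreated and 126 after LGG at date 1 and 1202 and 341 at date 2. Its dates overlapped, with the LGG array the lower at each date, and within each treatment date 2 was higher (1.22 ± 0.23, adjusted p = 0.0382).

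Of the 12 genes that were lower at date 2, 0 were on an interferon or MHC list, and these lists held only 104 of the 6952 genes tested. Hdgf, a heparin-binding growth factor, read 2028 untreated and 2531 after LGG at date 1, and 688 and 701 at date 2. Both values of date 2 were well below both of date 1 (-1.67 ± 0.20, SE, log2, limma adjusted p = 0.00241). Rrp9, a protein of the U3 small nucleolar ribonucleoprotein in ribosome biogenesis, read 342 and 307 at date 1 and 121 and 57.5 at date 2 (-1.67 ± 0.28, adjusted p = 0.0187). Fmod, the collagen-binding proteoglycan fibromodulin, read 1660.1 and 746 at date 1 and 532 and 234 at date 2, with LGG below untreated at each date (-1.58 ± 0.22, adjusted p = 0.00701). Polr2a, the largest subunit of RNA polymerase II, read 2681, 1678, 1006 and 772, without overlap (-1.24 ± 0.20, adjusted p = 0.0175). Phlda1, which responds early to growth factors, read 765 and 1838 at date 1 and 362 and 516 at date 2, and Actn1, the actin crosslinker alpha-actinin, 918 and 1182 and then 383 and 484. Their differences were -1.41 and -1.22 (log2, adjusted p = 0.0205 and 0.0244).

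Nfic and Nfib, 2 transcription factors of the nuclear factor I family, were both among the lower genes. Nfic read 194 and 263 at date 1 and 65.4 and 67.5 at date 2, below the filter at date 2, as were Stk10 and the mean of Rrp9, which entered the test through date 1 (-1.45 ± 0.28, SE, log2, limma adjusted p = 0.0372). Nfib read 1757 and 1199 at date 1 and 1036 and 378 at date 2, with the LGG array of date 2 the lowest (-1.18 ± 0.24, adjusted p = 0.0494). The kinase Stk10 read 226, 212, 71.7 and 64.3 (-1.39), and the taurine transporter Slc6a6 1302, 1577, 680 and 559.7 (-1.18). The smallest differences among the lower genes were those of 2 secreted proteins. Cxcl12, a chemokine made by stromal cells, read 10602 and 8691 at date 1 and 6702 and 4687 at date 2 (-0.77 ± 0.13, adjusted p = 0.0187). Sfrp2, a secreted modulator of Wnt signalling, read 9647 and 8494 and then 6171 and 5098 (-0.69 ± 0.13, adjusted p = 0.0265). Of the 9 lower genes with a promoter in the table, 0 held the ISRE core or the Y box letters and 1, Nfic, held the GAS letters. Of the 9 higher genes with one, 3 held the ISRE core (Cxcl10, Gbp2 and Trim30a), 4 the Y box (Cxcl10, H2-Aa, H2-Eb1 and Psmb9) and 0 the GAS letters. Among all tested genes with a promoter, 3.46% held the ISRE core, 6.59% the Y box and 7.12% the GAS letters. The Y box letters were also in 3 of 10 tested class I genes with a promoter (Canx, H2-D1 and Tap1), none of which passed by its brightest probe set.

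Other probe sets of the same gene read the same RNA on the same arrays with other probes. Of the 15 higher genes, 4 had further tested probe sets, and all 5 of these had a positive difference, 2 of them passing. H2-Ab1 had a second probe set that passed (1.91, log2, limma adjusted p = 0.0148). It read 38.5, 55.5, 165 and 359, in the order of untreated and LGG at date 1 and then date 2. Both values of date 1 were below the intensity filter, so this probe set entered the test only through date 2. Mpzl2 had 2 more at 1.43 and 1.03. Of the 12 lower genes, 5 had further tested probe sets, of which 5 of 6 had a negative difference and 1 passed. The exception was a dim probe set of Nfib at 203, 177, 176 and 212 (0.026). Some genes had further probe sets with values at date 2 alone, which give no difference between the dates. For Hdgf such a probe set read 2022 untreated and 2242 after LGG, and for Actn1 4576 and 4595.

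In all, 53 probe sets passed, 31 upward and 22 downward. Of these, 7 had no single gene name and were all higher at date 2, by 1.00 to 1.61 (log2). A further 16 belonged to 13 genes whose brightest probe set did not pass, 5 genes upward and 8 downward. Txnip, a regulator of redox state and glucose uptake, passed with a dimmer probe set that read 455 untreated and 1669 after LGG at date 1 and 1759.8 and 4053 at date 2 (1.58, log2, limma adjusted p = 0.0053), while its brightest differed by 0.67. Rnf128, a ubiquitin ligase, passed at 1.57 with 1 probe set and read 0.67 with the brighter one. Anp32a, a nuclear phosphoprotein, gave opposite signs, at -1.91 (adjusted p = 0.00701) with a probe set that read 1748, 1617, 688 and 262, and at 0.27 with another. Hipk2, a nuclear kinase, passed with a probe set that read 417 and 394 at date 1 and 83.1 and 47.6 at date 2, below the filter there, so it entered the test only through date 1 (-2.28, adjusted p = 0.00241). The brightest Hipk2 probe set differed by -0.62. Rpl37a, a ribosomal protein, read -1.51 with a dim probe set that can bind several transcripts and -0.15 with the brightest.

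**Figure D4:**
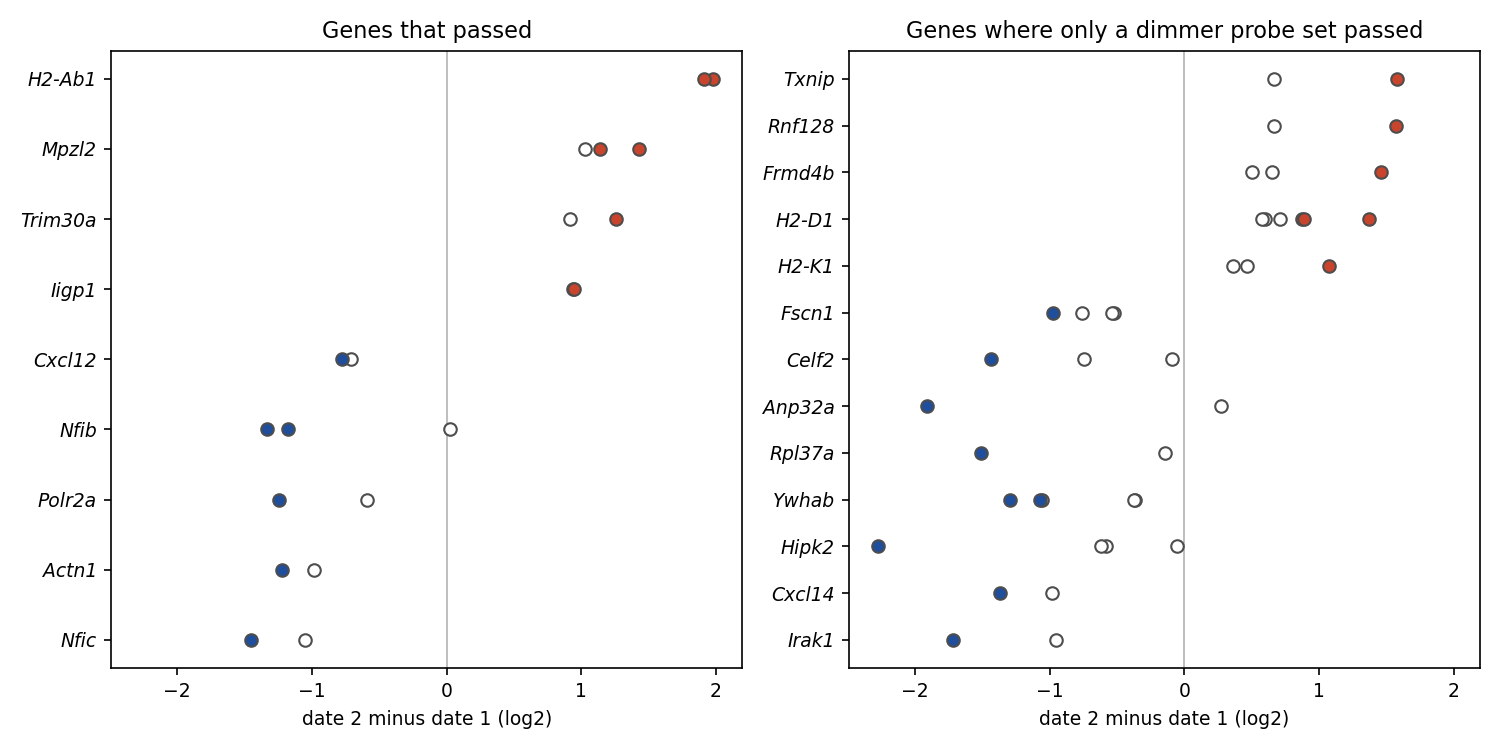
Difference between the dates (date 2 minus date 1, log2, fitted over both treatments) of every tested probe set of a gene, for genes that passed and have several on the left and for genes where only a dimmer probe set passed on the right. Filled points passed and open points did not; on the left all but 1 probe set of Nfib share the sign of the gene, while Anp32a on the right runs from -1.91 to 0.27.

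Other gene groups held few calls, where 0.216% of all genes tested were called higher and 0.173% lower. Immediate early genes and their feedback regulators had a median of -0.55 (log2), but this was -0.16 in the untreated and -0.93 in the LGG arrays. Of 22 tested, 12 were negative and 2 positive in both treatments (28.7% and 28.9% of all genes tested were), and 1 was called lower, Phlda1. The transcription factors Egr1 and Fos and the MAP kinase phosphatase Dusp6 had fitted differences of -1.45, -1.44 and -1.52 without passing (limma adjusted p = 0.075, 0.117 and 0.0802). For Fos the difference was -0.43 in the untreated and -2.45 in the LGG arrays, and for Dusp6 -0.58 and -2.46, with the LGG array of date 1 the highest in both genes. Egr1 read 2119.5 and 4553 at date 1 and 1509.9 and 829.9 at date 2, so that LGG was above untreated at date 1 and below it at date 2. Of 21 heat shock and chaperone genes, 15 had a negative and 0 a positive difference in both treatments (again against 28.7% and 28.9%, as for the lists that follow), with a median of -0.27 and 0 calls. Hspa1b, an inducible Hsp70, read 267 and 267 on the untreated arrays of dates 1 and 2 and 8617 and 3166 on the LGG arrays, and Bag3, an Hsp70 co-chaperone, differed by -0.59 and -1.25 in the untreated and LGG arrays (adjusted p = 0.121). Of 14 actin and SRF target genes, 10 were negative in both treatments, with a median of -0.25 and 1 call, Actn1, and with the smooth muscle proteins Tagln at -0.60 and -0.64 and Cnn2 at -0.42 and -0.64 in the untreated and LGG arrays. Of 15 sterol synthesis genes, 11 were positive in both treatments and 1 negative, with a median of 0.34 and 0 calls, and Fdps, which makes farnesyl diphosphate, read 1348, 1426, 2269.9 and 2454 (0.76, adjusted p = 0.106). Of 20 mitosis genes, 11 were positive in both treatments, with a median of 0.22 and 0 calls.

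**Figure D5:**
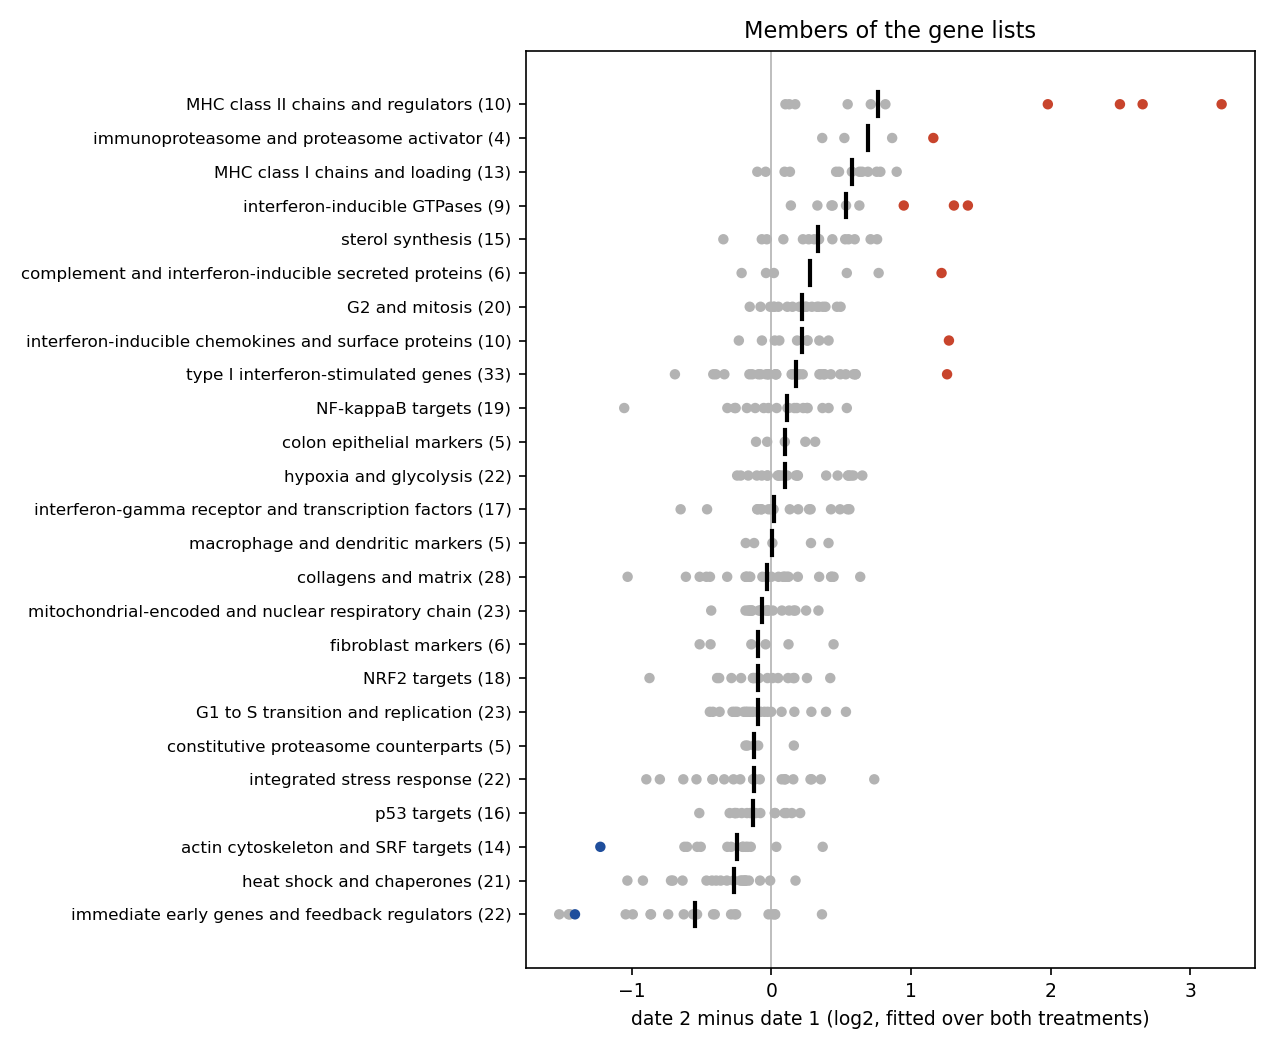
Difference between the dates (date 2 minus date 1, log2, fitted over both treatments) of each tested member of the gene lists with several members, ordered by the list's median, which is the black bar; the number tested is in parentheses. Red and blue points passed upward and downward, and the medians of MHC class II and immediate early genes are 0.76 and -0.55; 2 class II members, H2-Aa and Rfxank, were tested only through their date 2 values.

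Most of the genes that differed between the dates were not called for treatment in the same fit. Of the 15 higher genes, 3 were also higher after LGG (3.01% of all genes tested were) and 1 was lower (3.5% were), and of the 12 lower genes, 1 was higher after LGG and 2 were lower. Cxcl10 was higher after LGG by 1.51 at date 1 and 1.32 at date 2 (log2), H2-Ab1 by 1.76 and 1.12, and Gbp8 by 0.96 and 1.37. The second H2-Ab1 probe set gave 0.34 and 1.02 and was not called for treatment (limma adjusted p = 0.206). Cemip was lower after LGG by values of -1.87 and -1.74, and Fmod by -1.13 and -1.10, nearly the same at both dates. For Cd74 the LGG array differed from the untreated by 0.22 at date 1 and 1.18 at date 2, and for H2-Aa by -0.19 and 1.96, neither being called for treatment. Date and treatment calls share the same 4 arrays and 1 fit.

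Trimmed mean intensities were 513.5 and 506 at date 1 and 500.1 and 500.1 at date 2. Across probe sets the log2 values of the 2 untreated arrays correlated at 0.970 and those of the 2 LGG arrays at 0.946. The ratio of the 3′ to the 5′ control probe set of Gapdh was 0.805 and 0.931 at date 1 and 0.784 and 0.768 at date 2, and that of Tfrc was 3.16 and 3.94 at date 1 and 3.89 and 2.11 at date 2. The murine control probe set b1 read 5803 and 9954 at date 1 and 5314 and 6093 at date 2, and b2 read 562.5 and 1499 and then 458 and 565, so that the LGG array of date 1 was the highest in both. Of 9 spike-in control probe sets, 8 were lower at date 2 in the untreated arrays and 9 in the LGG arrays, with median ratios of date 2 to date 1 of 0.829 and 0.637. The part of these control differences in the results was not tested.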

How the data were processed

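For the 4 arrays the authors deposited intensity values on a linear scale in 1 table. The software, any scaling and any filter behind it are not given in the sources used here. Both arrays of date 1 have no value for the same 6307 probe sets, which were left out, as were 64 control probe sets. The values were used as deposited, since trimmed means (without the lowest and highest 2%) were alike. They were taken as log2(intensity + 25.2), a pseudocount of 5% of the geometric mean trimmed mean of 504.9, and probe sets with a mean of at least 101 (20% of it) were tested.

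Date and treatment were fitted with limma 3.58.1 in R 4.3.3 (lmFit, eBayes with an intensity trend), two-sided, with Benjamini-Hochberg adjustment over all 10333 probe sets and a threshold of 0.05. The treatments pair the arrays across the dates, and the date differences of both treatments correlated at 0.27 across probe sets. Names came from the platform annotation, in which 20364 probe sets with 1 symbol matched RefSeq genes of GRCm38.p6. A single symbol was given for 9594 of the tested probe sets, several for 296 (which name no gene here) and none for 443. No array coordinates are given, and only 4 arrays limit the precision. Promoters were the 250 bases before the start in RefSeq's table, which held 18 of the 27 genes that passed.

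The text names all 27 genes that passed, up to 4 members of a list with the largest difference of 1 sign in both treatments, and any member of the interferon-gamma, GTPase, class I, class II and proteasome lists. Genes named for a second probe set or a 2-fold difference alone, single markers and the Y box motif were chosen after values were seen. The comparison and the 29 gene lists were chosen with earlier results of these data known. The fit was tested on simulated data. Alternatives to the block, pseudocount, filter, scaling, variance prior, probe set rule and arrays used were run. Figures were drawn with matplotlib 3.10.9.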

Additional observations from a re-analysis of the deposited data

Results flagged for a closer look

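Phip, which encodes a pleckstrin homology domain interacting protein, was the 1 gene at least 2-fold apart between the dates in opposite directions in the 2 treatments. It read 245 untreated and 1027 after LGG at date 1, and 819.6 and 428 at date 2. The date difference was 1.65 in the untreated and -1.22 in the LGG arrays, so that the LGG difference minus the untreated difference was -2.86 (log2). This difference was not tested, since each combination of date and treatment has 1 array, and Phip was not called for the date (limma adjusted p = 0.901) or the treatment (adjusted p = 0.56).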

How the results depend on the processing

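All 27 genes that passed kept their sign in every alternative that measured them, which was largely fixed in advance. They were picked for a large difference on the same arrays. Dropping the block or the intensity trend, or using a robust prior, leaves the fitted difference itself unchanged. The number of genes higher and lower (15 and 12) moved with the fit. It was 0 and 0 without the treatment block (237 genes at an unadjusted p under 0.05 in limma) and 0 and 0 of 10782 genes with no filter on dim probe sets (851 genes). It was 2 and 0 without an intensity trend (Cd74 and H2-Eb1), 5 and 5 with median scaling, 8 and 6 with quantile normalization, 8 and 7 with a filter at 50% and 9 and 8 with a pseudocount of 1%. It was 94 and 113 when all probe sets of a gene were averaged. The prior degrees of freedom, 12.5 as reported, were 5.02 without the block, 5.01 with no filter and 286.7 with averaged probe sets. Among the genes that passed, calls held in 2 of 10 alternatives that used all arrays for Gbp8, 2 of 11 for Nfib, 3 of 11 for Cemip, Mpzl2 and Nfe2l3, 3 of 10 for Stk10, 4 of 11 for Iigp1, Serping1 and Slc6a6, 4 of 10 for Nfic and 5 of 10 for H2-Aa, and in at least 6 for each of the others. A pseudocount of 10%, scaling to a common trimmed mean and a robust prior stayed within 1.5 times. Leaving out 1 array in turn, without the block, gave 0 to 1 genes higher and 0 to 0 lower (171 to 474 genes at an unadjusted p under 0.05), and the 1 call was Cd74 without the untreated array of date 2. Genes at least 2-fold lower in both treatments numbered 24 with no filter and 6 with a filter at 50%, against 11. Other causes of these changes were not tested. No detection calls were used, so dim probe sets have no bound.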

Other observations

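Other probe sets of the genes that passed had values on the arrays of date 2 alone and belong in no comparison. For H2-Aa such a probe set read 476 on the untreated and 1732 on the LGG array, and for Gbp2 538 and 1139.5. For Htra1 it read 1074 and 1636. For these genes the LGG array was the higher, but other genes that passed did not share this direction. The LGG array was the lower in all 5 such probe sets of Fmod, 1 of which read 509.7 and 315.2. It was also the lower in that of Nfib, at 796.1 and 558.5, and the 2 of Slc6a6 went opposite ways.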
